A study of Mus musculus with 2 samples.

Results

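The cytosolic ribosomal protein genes encode the protein parts of the ribosome that translates nuclear messages, and 79 of them were followed through lens epithelial cells (LECs) and the blood vessel cells around the lens. Members were chosen by symbol (Rpl or Rps with a number, Rplp0 to Rplp2 and Rpsa) and by a sum of at least 1000 UMIs over both samples. UMIs (unique molecular identifiers) are each counted as 1 transcript. Of 32285 genes counted, 82 bore such a symbol and 79 reached the limit, 48 of the large subunit and 31 of the small subunit. The total UMI count therefore chose the members, and levels across groups of cells did not enter the rule. The members with the fewest UMIs were Rpl7l1 (11614), Rps27l (59863) and Rpl22l1 (95080), all far above the limit, and outside it lay Rpl39l (43), Rpl3l (3) and Rpl10l (0). Among the large totals were those of Rpl13 (936977), Rps27a (752104), Rplp0 (723270) and Rps2 (669041). The symbol rule misses the ribosomal genes Rps3a1, Fau and Rpl36al, among others, which are described apart.

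The study holds 2 pools (replicates 1 and 2, here pools 1 and 2) of lens epithelium dissected from 4 to 8 wild-type C57BL/6N pups each at postnatal day 2 (P2), with no treatment. Epithelium was taken off with the capsule, dissociated with enzymes and captured by 10x Genomics 3′ chemistry, so the fiber cells themselves were left behind. The vessels on the lens surface had been cleaned off beforehand, so the vascular cells are those that remained. Pool 1 held 12314 barcodes with a median of 6307 UMIs and pool 2 held 9425 with a median of 8050, and 27 barcodes occurred in both. After filtering, 18494 barcodes remained, and marker genes that include no ribosomal protein gene gated them into groups. The groups were resting LECs (2225 barcodes), early differentiating LECs (1986), late differentiating LECs (1711), S-phase LECs, mitotic LECs, endothelial cells (547), mural cells (375) and macrophages (51). The vascular groups were gated on the markers that name them, so their marker sums follow from the gates and do not test the labels. The 10 endothelial genes summed to 11294 and 11645 CPM (counts per 1000000 UMIs) in endothelial cells of pools 1 and 2. In resting LECs they summed to 86.6 and 82.8 CPM. The 10 mural genes summed to 28904 and 32810 CPM in mural cells, and the 10 macrophage genes to 38125 and 44806 CPM in macrophages. In mural cells the endothelial genes summed to 537 and 548 CPM and 6 fibroblast genes to 609 and 647 CPM, against 129 and 135 CPM of the latter in resting LECs, and their part in the mural results was not tested. The 6 early-differentiation markers were nearly as high in late differentiating LECs (7608 and 8222 CPM) as in early ones (8195 and 8457 CPM). Late ones are set apart by the late markers that gated them (105776 and 95478 CPM, against 35848 and 34745 CPM). The lens gates are upper shares of continuous marker scores, and between 211 and 905 barcodes per pool lay within 10% of a gate's limit, so they are ranges and not separate types. Cells are not replicates, so every comparison rests on 2 pools.

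A ribosome joins a small subunit, which reads the messenger RNA, to a large subunit, which links amino acids, and most of its proteins are normally needed in equal number. Many vertebrate ribosomal protein messages begin with an oligopyrimidine tract (5′ TOP), through which the kinase complex mTORC1 and the RNA-binding protein Larp1 control their translation and stability together. Differentiating lens cells make very large amounts of crystallin protein before they lose their nuclei and ribosomes.

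Because these messages are grouped by how they begin, the first transcribed bases of several genes whose levels are described later are shown. RefSeq start sites (GRCm38.p6) were matched for 59 of the 79 members. Each window runs from 5 bases before the annotated start to 25 bases from it, with its longest unbroken run of C and T in capitals. The first 3 genes carry long runs and the other 3 shorter ones.
Rpl22l1: agcccgTTCTCTTCCCacggctgcagctca
Rps27: tcgCTCCTTTCCggcggtgacgacctccct
Rps26: ccgccggaTCCTCTTTCgagtcttggctcc
Rps27l: ccgccgCCTCTatcccggaagttgctgagg
Rplp0: ttcgaggaccgcctggTTCTCCTataaaag
Rpl39l: tttccggatttccggtggtcgccaTTCTTT
The windows lie at chr3:28805503-28805532 on the plus strand (Rpl22l1), chr3:90213624-90213653 on the minus strand (Rps27), chr10:128626482-128626511 on the minus strand (Rps26), chr9:66946081-66946110 on the plus strand (Rps27l), chr5:115559462-115559491 on the plus strand (Rplp0) and chr16:10170223-10170252 on the plus strand (Rpl39l). Among the 59 members, 22 (37.3%) held a run of at least 8 such bases in the window, against 10.3% of the start sites of 27025 genes, taking 1 start for each gene. The motif CCGGAAG, searched on both strands over the 250 bases before and 50 after the start, was present in 23 members (39.0%) and in 9.12% of all starts. The motif TATAAA lay within 50 bases before the start on the sense strand in 1 member (1.69%) and in 2.88% of all. Annotated starts need not be those used in these cells, and a match is a description of letters.

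Nearly identical copies limit how well counts can be assigned. The 50-base words in the last 300 bases of 1 annotated transcript (GENCODE vM21) for each gene were compared with the transcripts of other genes. The median member shared 55.8% of these words with another gene, 20 members shared none and 4 shared all (Rpl10, Rpl36a, Rpl9 and Rps27). The kind of the other genes was not examined. Reads of such genes are uncertain. The share was 62.5% for Rps26, 63.3% for Rpl22l1, 48.6% for Rps29, 21.9% for Rps27l and 13.1% for Rps16, and 0% for Rpl5, Rpl14, Rpl11, Rpl28 and Rplp0. The paralog pairs themselves differ enough to be counted apart. Their final 30 coding bases before the stop codon, all exonic, show this, with the bases that differ within a pair in capitals.
Rps27: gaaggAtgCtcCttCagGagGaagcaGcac
Rps27l: gaaggCtgTtcAttTagAagAaagcaAcac
Rpl39: agacaCtggagGAgaacGaaGCtgggtctG
Rpl39l: agacaTtggagACgaacCaaATtgggtctA
Rps27 lies at chr3:90212522-90213651 and Rps27l at chr9:66946086-66949516 (GRCm38), and their coding sequences of 252 bases match at 192 positions (76.2%). Rpl39 lies at chrX:37082520-37085402 and Rpl39l at chr16:10170226-10174911, and theirs of 153 bases match at 130 (85.0%).

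The 79 genes took between 13.8% and 20.6% of all UMIs in every gated group, and the share differed between groups by more than it differed between the pools for most pairs of groups. In resting LECs the 79 genes took 18.0% of UMIs in pool 1 and 19.6% in pool 2. The values were 19.3% and 20.6% in early differentiating LECs, 14.7% and 16.2% in late differentiating LECs, 17.0% and 18.0% in S-phase LECs and 16.0% and 16.9% in mitotic LECs. In the vascular groups they were 19.4% and 20.2% in endothelial cells, 13.8% and 14.2% in mural cells and 14.1% and 15.5% in macrophages. Pool 2 was the higher in all 8 groups, so differences were taken within pools. In order of the means the groups were early differentiating LECs (19.9% ± 0.965, SD, n = 2 pools), endothelial cells (19.8% ± 0.573), resting LECs (18.8% ± 1.17), S-phase LECs (17.5% ± 0.739), mitotic LECs (16.5% ± 0.621), late differentiating LECs (15.4% ± 1.11), macrophages (14.8% ± 1.01) and mural cells (14.0% ± 0.295). The pool values of neighbors in this order overlapped, except those of S-phase and mitotic LECs. Relative to resting LECs of the same pool, the share was 1.14 percentage points higher in early differentiating LECs (SD 0.209) and dropped by 2.35 points in mitotic LECs (SD 0.553); in mural cells it dropped by 4.77 points (SD 0.880). Endothelial cells lay above resting LECs in the share of all summed UMIs but not by the following measures. The median endothelial barcode had 17.6% and 18.0%, against 18.0% and 19.7% in resting LECs of the same pools. Outside crystallin and mitochondrially encoded genes, the summed share was 20.4% and 21.3% in endothelial cells, against 20.9% and 22.7% in resting LECs. Fewer ribosomal protein transcripts per cell and more of other transcripts cannot be told apart by a share.

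**Figure D1:**
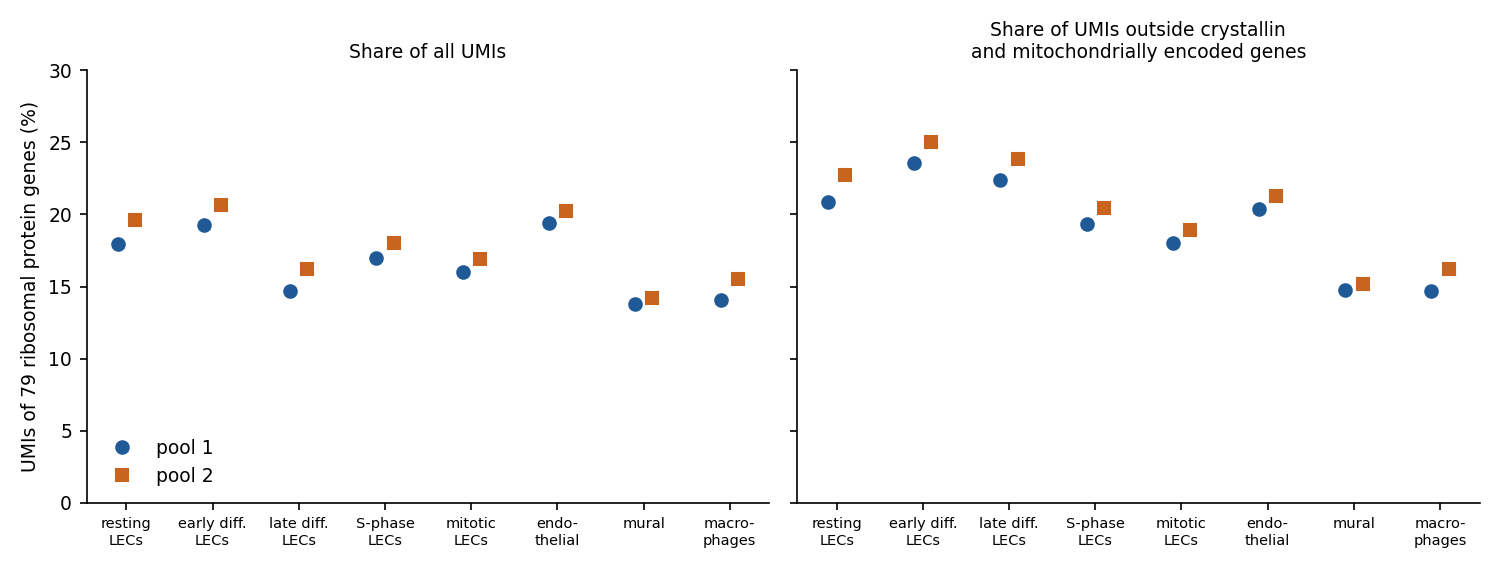
Share of UMIs (percent, axis from 0) taken by the 79 ribosomal protein genes in 8 gated groups, each point 1 pool (circles pool 1, squares pool 2). On the left the share is of all UMIs and on the right of UMIs outside crystallin and mitochondrially encoded genes; late differentiating LECs lie at 14.7% and 16.2% on the left and at 22.4% and 23.8% on the right, and mural cells lie at or below 15.2% in both.

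The position of late differentiating LECs turned on what the share was taken of. Crystallins, the structural proteins of the lens, took 7.95% and 7.83% of UMIs in resting LECs of pools 1 and 2, 13.0% and 12.5% in early differentiating LECs and 31.1% and 28.3% in late differentiating LECs. Among UMIs outside crystallin and mitochondrially encoded genes, the ribosomal protein share was 20.9% and 22.7% in resting LECs, 23.6% and 25.1% in early differentiating LECs and 22.4% and 23.8% in late differentiating LECs. Late differentiating LECs were thus below resting LECs in the first share, where the share dropped by 3.36 points (SD 0.0648, n = 2 pools), and above them in the second, by 1.31 points (SD 0.302). The count of ribosomal protein UMIs for the median barcode was 938 and 1307.5 in resting LECs, 1552.5 and 2095 in early differentiating LECs and 1950 and 2421.5 in late differentiating LECs. The median barcode held 5244 and 6643.5 UMIs of any gene in resting LECs and 12569 and 14151 in late differentiating LECs. UMIs per barcode depend on cell size and on capture, and these were not separated.

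Along the whole range of the late-differentiation score, which is built from beta and gamma crystallins and fiber genes such as Mip and Bfsp1, the same pattern was seen in each pool. With lens barcodes in 10 bins of rising score, the ribosomal protein share of all UMIs was 17.2% in bin 1 and 18.9% in bin 9 of pool 1, and 17.9% and 20.4% in pool 2. In bin 10 it was 14.7% and 16.2%. The crystallin share was 14.2% and 14.0% in bin 9 and 31.1% and 28.3% in bin 10. Outside crystallin and mitochondrial genes, the share went from 19.5% to 23.5% between bins 1 and 9 of pool 1 and was 22.4% in bin 10, with 20.2%, 25.2% and 23.8% in pool 2. Bins are ordered by genes measured in the same barcodes, so this is a description.

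**Figure D2:**
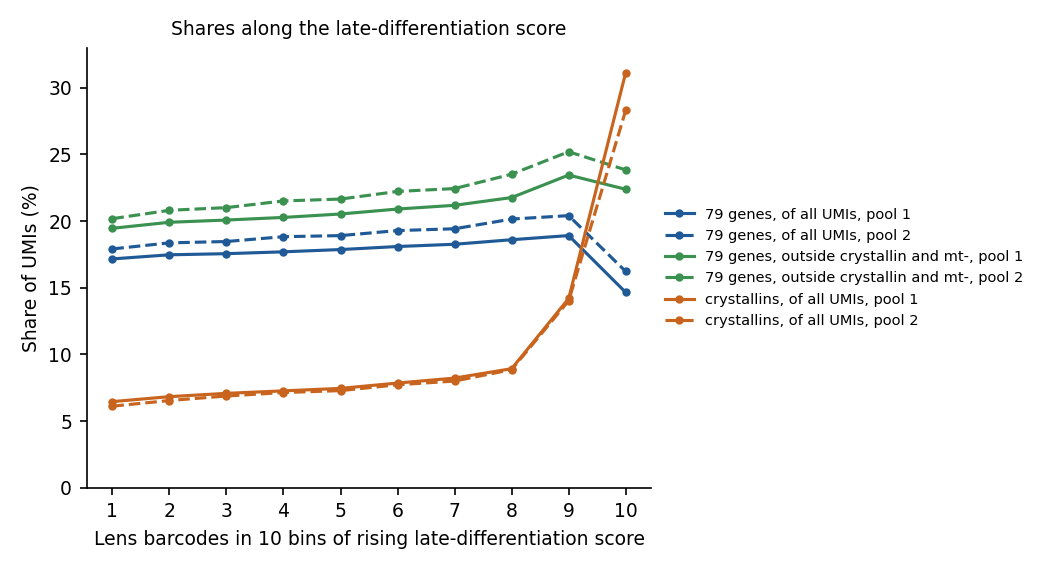
Share of UMIs (percent) over 10 bins of lens barcodes with rising late-differentiation score, solid lines pool 1 and dashed lines pool 2. The ribosomal protein share of all UMIs (blue) ends at 14.7% and 16.2% while the crystallin share (orange) ends at 31.1% and 28.3%; outside crystallin and mitochondrial genes (green) the end lies at 22.4% and 23.8%.

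Single genes were then tested on UMIs summed for each pool and group. The test was edgeR's quasi-likelihood test with the pool as a block, TMM scaling and Benjamini-Hochberg adjustment over all 13560 genes tested, with 0.05 as the threshold. All 79 members passed the filter on low counts. The TMM factors of late differentiating LECs were 0.651 and 0.676, against 1.04 and 1.01 in resting LECs, so that this scaling sets the crystallins largely aside. In early differentiating against resting LECs, 70 of 79 members rose and 0 fell, where 21.8% of all genes tested rose and 17.2% fell. The median log2 fold change of the members was 0.21 (0.24 in pool 1 and 0.20 in pool 2), against 0.04 for all genes tested. The median was 0.22 in the large and 0.21 in the small subunit. The count depended on the settings: 28 members rose and 2 fell with library size alone as the scale (median 0.08), and 15 rose without the pool term. For the 0 members that fell, 0 also had an unadjusted p under 0.05.

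From early to late differentiating LECs, 40 of 79 members rose and 1, Rps27, fell, where 21.3% of all genes rose and 19% fell. The member median was 0.12 on the log2 scale (0.14 and 0.11 in the pools), against -0.02 for all genes. This direction held under TMM scaling, also with member, crystallin and mitochondrial genes left out of the scaling (median 0.12). It did not hold for the summed share of UMIs outside crystallin and mitochondrial genes. That share was 23.6% and 25.1% in early and 22.4% and 23.8% in late differentiating LECs. With library size alone, 0 members rose and all 79 fell, with a median of -0.37, and without the pool term 1 rose and 0 fell. With every barcode thinned to 3000 UMIs, 18 rose. The median was 0.15 in the large and 0.08 in the small subunit.

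In S-phase against resting LECs, 27 of 79 members fell and 3 rose, where 17.9% of all genes fell and 22.1% rose, with a member median of -0.07. Those that rose were Rpl22l1, Rps27l and Rpl41. In mitotic LECs the shift was wider: 57 members fell and 5 rose, where 20.4% of all genes fell and 24% rose, and the median was -0.17 (-0.16 and -0.21 in the pools). Both comparisons share the resting LECs as controls, and the gate on resting LECs admits only barcodes with no UMI of the mitotic marker genes. Without the pool term, 2 members fell in S phase and 17 in mitosis. DESeq2 in place of edgeR gave 52 members lower in S phase. Over the 3 scales tried the members' median lay between -0.07 and -0.13 in S phase and between -0.17 and -0.24 in mitosis. In pool 1, scaled alone, it was -0.20 and -0.31.

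Vascular cells were compared with resting LECs and with each other. In endothelial cells, 15 members rose and 34 fell, where 30% of all genes rose and 27.1% fell, and the median of -0.07 had a range between members from -0.75 to 0.50. This comparison showed spread and no shared shift that held: with library size alone 32 rose and 13 fell (median 0.06), and with no upper limit on UMIs 29 rose and 13 fell. The endothelial share also moved with depth. With barcodes in 3 equal parts by rising UMI count it was 15.1%, 18.9% and 20.4% in pool 1 and 15.5%, 18.4% and 22.2% in pool 2, while crystallin UMIs in the lowest and highest parts went from 0.565% to 0.283% and from 0.495% to 0.298%. The part of depth in the endothelial result was not tested.

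In mural cells, the contractile and pericyte cells of vessel walls, 72 members fell and 1 rose (Rps16), where 21.7% of all genes fell and 23.3% rose. The median was -0.55 (-0.52 and -0.59 in the pools), against -0.08 for all genes, and it lay between -0.41 and -0.64 on the other scales tried. In macrophages 68 members fell and 2 rose, where 15% of all genes fell and 12.4% rose. Their median was -0.61, against -0.71 for all genes tested, so under TMM scaling the median member fell less than the median gene. In DESeq2 the medians were -0.50 and -0.12. Here and in the other comparisons, the genes behind the shares over all genes were not matched to the members for level. The macrophage sums held only 25 and 26 barcodes. Endothelial against mural cells, which do not use the resting LECs, had 75 members higher and 1 lower, where 17% of all genes were higher and 15.3% lower. The median was 0.50 in that comparison (0.51 and 0.50 in the pools), and 0.46 in the large and 0.56 in the small subunit. Lens transcripts in vascular barcodes, estimated from Cryaa and Cryab, made up between 2.54% and 4.59% of the UMIs of the vascular sums; with this profile subtracted the medians were -0.09 in endothelial, -0.62 in mural cells and -0.68 in macrophages, and 0.53 for endothelial against mural cells. The mitotic marker genes summed to 1078 and 218 CPM in endothelial cells of pools 1 and 2 and to 372 and 37.9 CPM in mural cells, and the part of cycling in these results was not tested.

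**Figure D3:**
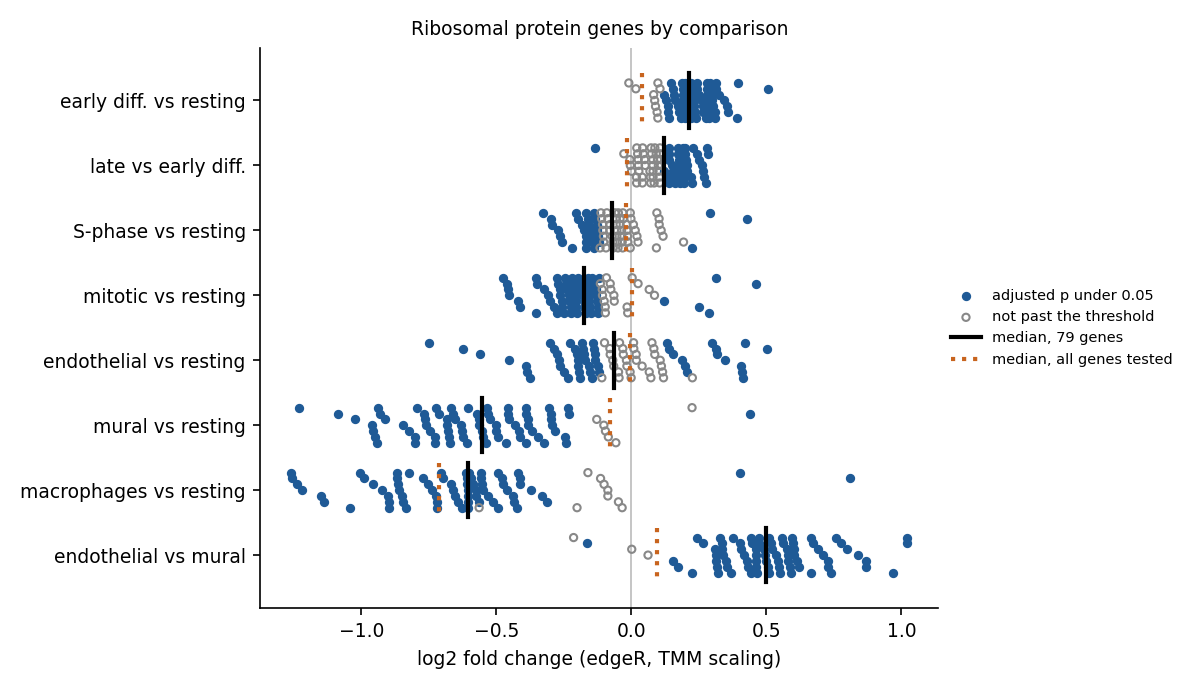
Log2 fold change of each of the 79 genes (points, filled where edgeR's adjusted p was under 0.05) in 8 comparisons under TMM scaling, with the median of the 79 genes (black bar) and of all genes tested (dotted orange bar). The medians lie at 0.21 for early differentiating against resting LECs, -0.55 for mural cells against resting LECs and 0.50 for endothelial against mural cells; under library size alone the late against early median moves from 0.12 to -0.37.

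To find genes that did not follow the others, the same test was run with the scale taken from the 79 members alone, so that 0 stands for a gene that moved with the shared shift. The value is called its departure. Departures were fewest in the lens comparisons and most numerous in endothelial and mural cells against resting LECs. They were called in 16 members for early differentiating against resting LECs (6 up and 10 down), 18 for late against early (7 and 11), 21 for S phase (10 and 11), 27 for mitotic LECs (13 and 14), 50 for endothelial cells (25 and 25), 54 for mural cells (26 and 28), 33 for macrophages (16 and 17) and 40 for endothelial against mural cells (19 and 21). On the same scale, which shifts all genes against the members, the shares of all genes called up and down were 11% and 30.5%, 14% and 27%, 25.3% and 13.9%, 34.1% and 12.5%, 31.3% and 25.2%, 38% and 10.8%, 16.4% and 6.47%, and 8.59% and 27.3% in the same order. The scale centers the members and not the other genes, so nothing is read from these counts against that background, and what follows describes which genes departed and by how much. The typical departure was small, with a median size of 0.05 to 0.07 on the log2 scale in the 4 lens comparisons and of 0.12 to 0.19 in the others. Without the pool term the counts were 0, 0, 4, 9, 20, 30, 27 and 18. Over the 8 comparisons Rpl10 departed in 8, Rplp1 in 7 and Rpl10a, Rpl38, Rplp2 and Rps10 in none.

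In S-phase and mitotic LECs, the paralogs Rpl22l1, Rps27l and Rpl7l1 departed upward. Rpl22l1, a near relative of the large subunit protein Rpl22, had 389 and 473 CPM in resting LECs, 515 and 598 CPM in early differentiating, 523 and 619 CPM in S-phase and 536 and 645 CPM in mitotic LECs. Within each pool it was higher in those 3 groups than in resting LECs. Its departure was 0.28 (SE 0.051, edgeR adjusted p = 1.89e-06) in early differentiating, 0.50 (SE 0.052, adjusted p = 7.38e-15) in S-phase and 0.64 (SE 0.051, adjusted p = 5.12e-21) in mitotic LECs. Rps27l, the relative of Rps27, had 290.0 and 339 CPM in resting, 346 and 412 CPM in S-phase and 355 and 409.5 CPM in mitotic LECs. It departed by 0.36 in S phase and 0.46 in mitosis (edgeR adjusted p = 1.76e-08 and 1.08e-12), and not in early differentiating LECs (-0.03, adjusted p = 0.730). Rpl41, which encodes a very short basic protein of the large subunit, departed by 0.17, 0.30 and 0.43 in the same 3 groups. It rose from 2638 and 2993 CPM in resting to 3119 and 3545 CPM in mitotic LECs. The relative of Rpl7, Rpl7l1, was scarce, at 63.1 and 58.3 CPM in resting LECs, and departed by 0.26 in S phase and 0.49 in mitosis.

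Several core proteins departed downward in the same cells. Rpl10, an X-linked gene whose protein joins the large subunit late in its assembly, had 2599 and 2403 CPM in resting LECs and 1913 and 1728 CPM in mitotic LECs, with no overlap between the groups. Its departure was -0.23 in early differentiating, -0.22 in S-phase and -0.28 in mitotic LECs (edgeR adjusted p = 2.39e-06, 8.52e-06 and 3.26e-08), and it is among the members whose 3′ ends are fully shared with copies. Rps27 departed by -0.14, -0.22 and -0.28 in these groups and by a further -0.27 from early to late differentiating LECs, where it had 1455 and 1659 CPM in early and 913 and 1109.8 CPM in late cells. Its paralog Rps27l thus moved the other way in S phase and mitosis. Rps26, which lines the exit of the messenger channel, departed by -0.30 in mitosis, Rpl37, a zinc-binding protein of the large subunit, by -0.28, and in S phase Rpl17 and Rps14 departed by -0.26 and -0.20. In early differentiating LECs, Rpl8 departed by -0.21, while Rpl36 and Rpl13a departed by 0.17 and 0.13. From early to late, Rpl36, Rpl11 and Rpl27 departed by 0.15, 0.14 and 0.13, and Rpl23a, Rpl22 and Rps12 each by -0.14. These late departures had edgeR adjusted p between 0.00472 and 0.011.

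Vascular cells carried the widest departures. Rps16, a small subunit protein whose tail reaches the transfer RNA, had 2203 and 2458 CPM in resting LECs, 3382 and 3814 CPM in endothelial cells and 3180.1 and 3778 CPM in mural cells, so that both vessel groups lay above all 5 lens groups in each pool. It departed by 0.56 in endothelial (SE 0.045, edgeR adjusted p = 3.23e-21), 1.00 in mural cells (SE 0.048, adjusted p = 3.73e-37) and 0.47 in macrophages. In mural cells it rose against the shared fall, with a log2 fold change of 0.44 under TMM scaling. Rps29, a zinc-binding protein of the small subunit, had 4529 and 4869 CPM in macrophages against 2228 and 2304 CPM in resting LECs, a departure of 1.44 (SE 0.062, edgeR adjusted p = 2.1e-40). It also departed in endothelial (0.41) and mural cells (0.31).

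Other upward departures were shared less widely, and not all of them were rises under TMM scaling. Rpl28, a large subunit protein found in eukaryotes, and Rpl37a departed by 0.49 and 0.47 in endothelial cells. Rpl34 departed by 0.50 in mural cells and 0.59 in macrophages, Rpl36 by 0.47 in mural cells and Rpl35a by 0.58 in macrophages. Under TMM scaling their log2 fold changes were -0.06, -0.03, -0.09 and -0.05 in this order, none past the threshold. Rpl7l1 departed by 0.78 in mural cells (SE 0.18), where it had 85.2 and 71.7 CPM. Its log2 fold change there was 0.22 under TMM scaling (edgeR adjusted p = 0.297). Between the vessel types, Rps6, the small subunit protein phosphorylated by S6 kinases, had 2215 and 2095 CPM in endothelial and 1172 and 992 CPM in mural cells and departed by 0.53. Rps20 and Rpl27a departed by 0.48 and 0.38 toward endothelial cells. Rpl21, at 2389.6 and 2331 CPM in endothelial and 2589 and 2770.4 CPM in mural cells, departed by -0.66, Rps27l by -0.71, Rps16 by -0.43 and Rpl7l1 by -0.49.

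Rps26 and Rpl5 departed downward in all 3 vascular groups. Rps26 had 1949 and 2210.1 CPM in resting LECs, 1262 and 1439 CPM in endothelial cells, 1083 and 1082 CPM in mural cells and 1028 and 1190.1 CPM in macrophages. The groups did not overlap with resting LECs, and the departures were -0.68, -0.53 and -0.52. Rpl5, which with Rpl11 and 5S RNA can bind Mdm2, had 2122 and 2063 CPM in resting LECs and between 966 and 1599.6 CPM in the 3 vascular groups, with departures of -0.50, -0.47 and -0.61. These 3 comparisons share the resting LECs. Rpl14 fell to 1063 and 879 CPM in mural cells from 2007 and 2091 CPM in resting LECs, a departure of -0.67 (SE 0.058, edgeR adjusted p = 2.92e-19), and it was lower by more in pool 2. Rps27a, which is made as a fusion with ubiquitin, departed by -0.41 in mural cells. In macrophages Rpl7, Rps2 and Rplp0, the base of the ribosomal stalk, departed by -0.63, -0.62 and -0.58, and for Rps2 and Rplp0 the departure was wider in pool 2 (-0.82 and -0.86) than in pool 1 (-0.42 and -0.32). Rpl10 departed by -0.39 in endothelial cells and by 0.52 in macrophages.

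**Figure D4:**
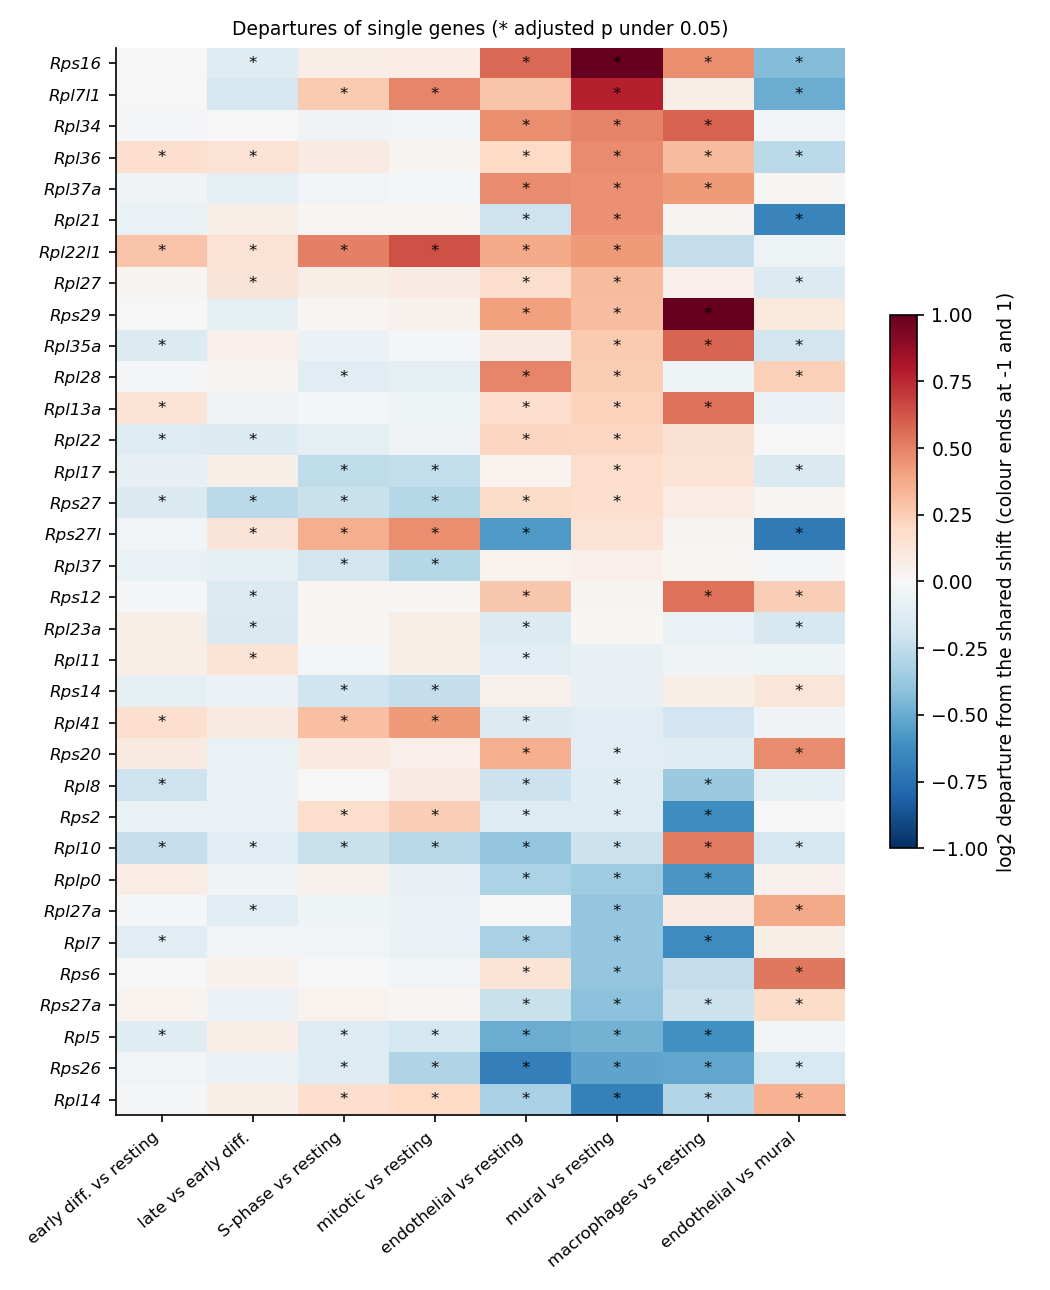
Departure of single genes from the shared shift (log2, color, ending at -1 and 1; asterisks mark edgeR adjusted p under 0.05) in 8 comparisons, for reported genes among the 4 widest in either direction in any comparison. Colors are palest in the 4 lens comparisons on the left; among the darkest cells are Rps16 in mural cells (1.00) and Rps29 in macrophages (1.44).

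Set against their paralogs, the same genes gave ratios that the scaling cannot move. Counts of 3′ ends are not levels of protein and the reads of the genes of a pair are not equally unique, so a ratio is compared only between groups. Rpl22l1 stood at 41.2% and 42.8% of Rpl22 in resting LECs, 56.1% and 55.4% in early differentiating, 71.6% and 64.1% in late differentiating, 62.4% and 64.0% in S-phase and 66.2% and 68.0% in mitotic LECs. Each of the other lens groups was above resting LECs in both pools. It stood at 48.0% and 45.7% in endothelial cells, 49.1% and 48.5% in mural cells and 32.0% and 32.1% in macrophages. Rps27l stood at 18.9% and 20.0% of Rps27 in resting LECs, 28.4% and 27.2% in late differentiating, 28.0% and 30.5% in S-phase and 31.8% and 33.6% in mitotic LECs. In endothelial cells it was 12.2% and 10.9%, below every other group in both pools, and in mural cells 21.0% and 18.0%, which overlapped with resting LECs. Rpl7l1 stood at between 2.05% and 3.21% of Rpl7 in the lens groups and at 5.37% and 4.45% in mural cells.

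**Figure D5:**
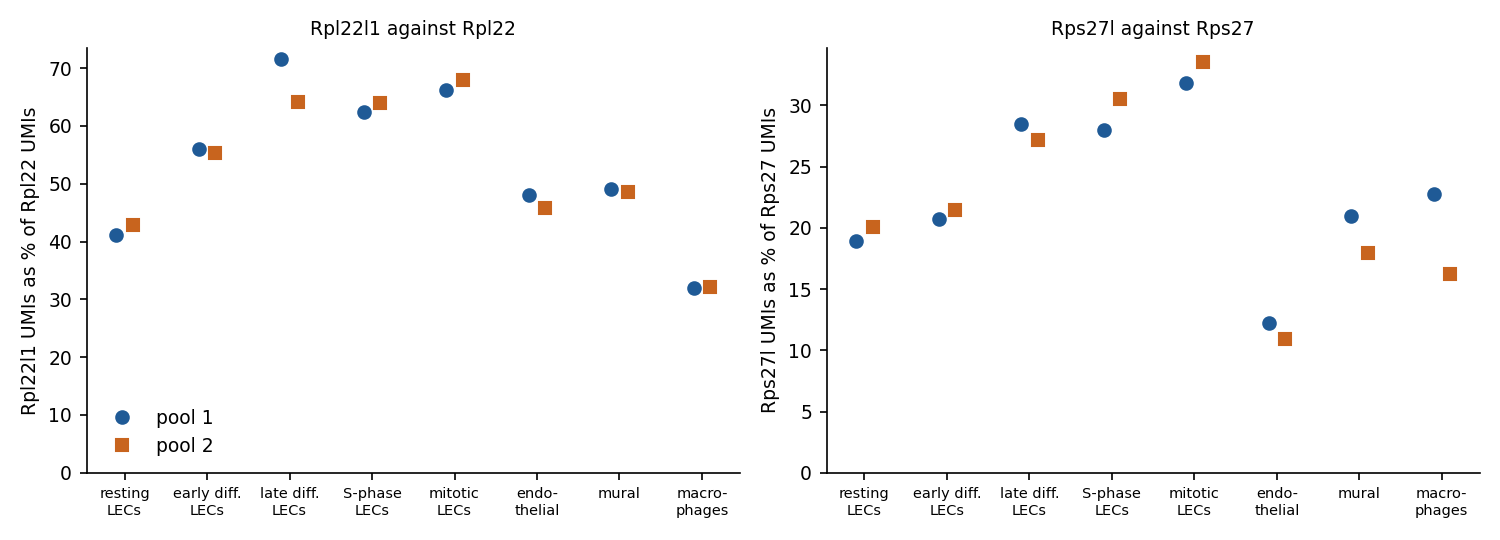
UMIs of Rpl22l1 as a percentage of those of Rpl22 (left) and of Rps27l as a percentage of those of Rps27 (right) in 8 gated groups, each point 1 pool (circles pool 1, squares pool 2), axes from 0. Resting LECs are the lowest lens group for both, at 41.2% and 42.8% and at 18.9% and 20.0%, and endothelial cells are the lowest of all for Rps27l, at 12.2% and 10.9%.

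Genes tied to the ribosome but outside the symbol rule were read from lists, with counts and fold changes under TMM scaling alone. Of 6 further ribosomal protein genes, 2 rose in early differentiating LECs and 3 fell in mural cells. Rps3a1 fell with the members in mural cells (log2 fold change -0.56, SE 0.058) and macrophages (-0.77). Fau, whose product is cut into a ubiquitin-like part and a small subunit protein, rose in macrophages (0.23, SE 0.075), by 0.03 in pool 1 and 0.39 in pool 2 on this scale, and had 3220.4 and 4669.6 CPM there against 2611 and 3078 CPM in resting LECs. Rpl36al, the relative of Rpl36a, rose from early to late differentiating LECs (0.40, SE 0.054).

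Translation factors and other messages of the TOP class were the first such list of wider scope. Of 22 genes, 21 fell and 0 rose in mural cells (median -0.75), where 21.7% of all genes fell. In macrophages 19 fell and 0 rose (-1.06), in endothelial cells 15 fell and 0 rose (-0.32) and in mitotic LECs 14 fell and 5 rose (-0.23), where 15%, 27.1% and 20.4% of all genes fell. In endothelial against mural cells 17 were higher and 0 lower (0.50), where 17% of all genes were higher. In early differentiating LECs 7 rose and 3 fell (0.06), where 21.8% of all genes rose and 70 of the 79 members did. Nap1l1, a histone chaperone with a TOP message, had 1252 and 1152 CPM in resting and 3095 and 2982 CPM in early differentiating LECs, a log2 rise of 1.47 (SE 0.053, edgeR adjusted p = 2.87e-78). It was at 411 and 376 CPM in endothelial cells. Gas5, a noncoding TOP host gene of small nucleolar RNAs, fell by 1.09 on the log2 scale in mitotic LECs (387 and 382 CPM, against 761 and 893 CPM in resting LECs). The elongation factor Eef2 fell by 0.50 in S phase and by 0.65 in mitosis.

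Ribosome biogenesis genes, which make and fold ribosomal RNA in the nucleolus, had their largest count of rises in S phase. Of 40 tested, 27 rose in S-phase LECs and 1 fell (median 0.38), where 22.1% of all genes rose and 3 of the 79 members did. In early differentiating LECs 15 rose and 4 fell (0.19) and in mitotic LECs 13 rose and 6 fell (0.07), where 21.8% and 24% of all genes rose. In mural cells 18 fell and 3 rose (-0.44), where 21.7% of all genes fell. Nhp2 and Gar1, parts of the box H/ACA complex that modifies ribosomal RNA, rose by 1.15 (SE 0.069) and 1.04 (SE 0.092) in S phase, and Nop56, of the box C/D complex, by 1.00 (SE 0.072). Nhp2 had 103 and 116 CPM in resting and 224 and 252 CPM in S-phase LECs. Ncl, the nucleolar protein nucleolin, rose by 0.70, and Npm1, nucleophosmin, held in the TOP list, by 0.69. Myc, a regulator of ribosome genes, was at 7.40 and 11.4 CPM in resting and 1.28 and 0.707 CPM in early differentiating LECs, a log2 fold change of -3.02 (SE 0.33, edgeR adjusted p = 2.23e-16), and was at 0 in both pools of late differentiating LECs. Imp3, of the small subunit processome, had 233 and 272 CPM in mural cells against 165 and 161 CPM in resting LECs (0.51) and 88.2 and 79.1 CPM in endothelial cells (-1.07).

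The proteins of the mitochondrial ribosome, which are encoded in the nucleus and are no members here, were a further point of reference. Of 78 tested, 53 rose and 1 fell from early to late differentiating LECs under TMM scaling (median 0.31), where 21.3% of all genes rose. With library size alone, 678 of 13560 genes tested rose and 8031 fell in this comparison. The list was not counted on that scale, so its direction there is not known. In mitotic LECs 32 rose and 3 fell and in S-phase LECs 27 rose and 6 fell, where 24% and 22.1% of all genes rose. In endothelial cells 43 fell and 6 rose (-0.40), where 27.1% of all genes fell. Mrpl18 had 121 and 127 CPM in resting and 293 and 325 CPM in S-phase LECs (1.34, SE 0.066), and Mrps26 rose from early to late by 0.92 (SE 0.074). Mitochondrially encoded genes took 5.30% and 5.13% of UMIs in early and 3.39% and 3.63% in late differentiating LECs.

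Of 13 genes of the mTORC1 pathway to TOP messages, 2 rose and 2 fell in early differentiating LECs and 3 rose and 3 fell in mural cells, where 21.8% and 23.3% of all genes rose and 17.2% and 21.7% fell, so the list did not stand out from the other genes. Mtor, the kinase itself, had 72.3 and 59.3 CPM in resting LECs and 29.7 and 27.3 CPM in early differentiating LECs (-1.08, SE 0.097), and Larp1 was not called there (0.00, edgeR adjusted p = 0.999). Mtor was also lower in endothelial (-1.36, SE 0.18) and mural cells (-1.53, SE 0.24) and was at 0 and 9.08 CPM in macrophages, where it was called lower too. Larp1 fell in endothelial (-0.81, SE 0.15), mural (-1.03, SE 0.20) and macrophage sums (-1.48, SE 0.48). Eif4ebp2, a repressor of cap-dependent translation, rose by 2.02 (SE 0.19) in mural and 1.41 (SE 0.16) in endothelial cells. Of 11 genes of the pathway from free ribosomal proteins through Mdm2 to p53, 4 rose and 0 fell in mural cells, where none of the others had an unadjusted p under 0.05, and 3 rose and 2 fell in early differentiating LECs. Among all genes 23.3% rose in mural cells, and 21.8% rose and 17.2% fell in early differentiating LECs. Mdm2 was not called in any of the 8 comparisons (edgeR adjusted p from 0.0600 to 0.887). Cdkn1a, a cell-cycle inhibitor that p53 induces, had between 50.1 and 172.6 CPM in the vascular groups and 4.66 and 0.722 CPM in resting LECs.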

How the data were processed

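Single cells of 2 pools of P2 mouse lens epithelium were sequenced with 10x Genomics 3′ chemistry. The authors aligned reads to mm10 with Cell Ranger (version 6.1.1, as recorded with the deposited counts). They deposited raw UMI counts for each gene and barcode, with 32285 genes in each pool and sums of 93839132 and 86033032 UMIs. These counts were used as deposited.

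Barcodes between percentiles 2 and 97 of genes and UMIs (446 to 4261 genes and 949 to 20198 UMIs) with at most 15% mitochondrial UMIs were kept (20102), and Scrublet was run on each pool to remove the 8% most doublet-like barcodes (18494 left). Vascular groups needed at least 0.2% of UMIs on at least 3 of their markers. Lens groups were the top 10% (late differentiating), 12% (mitotic), 12% (S phase), 15% (early differentiating) and 40% (resting) of marker scores, taken in this order. Lens barcodes under 1% mitochondrial UMIs were kept apart, and 58 barcodes fell in no gate. Gate genes were left out of the tests.

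UMIs were summed over the barcodes of each pool and group and fitted in 1 model over 8 groups with edgeR 4.0.16 (limma 3.58.1, R 4.3.3), by the quasi-likelihood test with the pool as a block. The pool number marks a shared library, so that same-numbered sums come from the same animals and capture. Shares, gates and figures used Python 3.11.15, scanpy 1.11.5, pandas 2.3.3 and matplotlib 3.10.9. The fit was tested on simulated counts. CPM are UMIs per 1000000 of a group's own UMIs, before TMM scaling. Levels were not compared between genes, because 3′ counts depend on the transcript end and on copies elsewhere in the genome. The p-values rest on the spread between the 2 pools that is left after the pool term. That spread was estimated over all 8 groups together, with 7 residual degrees of freedom for each gene. The fit then drew each gene's spread toward the spread of all genes tested. The smallest p-values thus owe much to spread shared between genes and do not measure replication over 2 pools alone. Members, gene lists and gates were chosen with earlier results of these data known, so no list was given a test of its own. Named genes were, for each comparison, the 4 widest departures in each direction that passed the threshold with the same sign in both pools, the paralog pairs, and the widest changes in each list; Ncl and Mdm2, and the values of Larp1 and of Imp3 in the comparisons where they were not widest, were added after their values were seen. Some genes that met the rule are not reported here.
Coordinates are GRCm38, the build of mm10, from GENCODE vM21 for genes and RefSeq for start sites. Alternatives were DESeq2 1.42.0, a minimum fold of 1.2 (glmTreat), other scalings, no filter on low counts, other barcode limits, stricter gates, thinning to 3000 UMIs, subtraction of a lens profile, no pool term and each pool alone.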

Additional observations from a re-analysis of the deposited data

Results flagged for a closer look

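Barcodes outside the compared groups also carried ribosomal protein UMIs, and their values are given without a test. Lens barcodes with under 1% mitochondrial UMIs (157 in pool 1 and 208 in pool 2) had the highest share of any set examined, 20.7% and 24.5% of UMIs, or 26.7% and 30.2% outside crystallin and mitochondrial genes. They held a median of 1845 and 2063.5 UMIs, their crystallin share was 22.0% and 18.4%, and the 5 erythroid marker genes summed to 293 and 262 CPM, above every other group. Barcodes over the upper UMI limit (286 and 367, with medians of 24417 and 24536 UMIs) had shares of 15.6% and 16.3%. Rpl39l, which lay outside the limit of 1000 UMIs, was at 0 in both pools of all 5 lens groups. At 95% confidence, a count of 0 leaves an expected count of up to about 3 for each sum. Rpl39l stood at 18.5 and 21.6 CPM in mural cells, on few UMIs. It was at 1.35 and 3.12 CPM in endothelial cells and at 10.4 and 0 CPM in macrophages. Against Rpl39 in the same cells, mural Rpl39l came to 1.12% and 1.29%.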

How the results depend on the processing

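Counts of members higher, lower or departing were recomputed for the 8 comparisons, and 203 of the 260 recomputed counts stayed within 1.5 times the reported one. Without the replicate block, members departing numbered 0 in early, 0 in late, 4 in S-phase, 9 in mitotic, 20 in endothelial, 30 in mural, 27 in macrophage and 18 in endothelial against mural comparisons. Members higher without the block numbered 15 in early, 1 in late, 1 in S-phase, 2 in mitotic and 6 in endothelial comparisons, and members lower 0 in late, 2 in S-phase, 17 in mitotic, 13 in endothelial and 0 in endothelial against mural comparisons. With a minimum fold of 1.2, 0 early, 0 late, 2 S-phase, 4 mitotic, 14 endothelial, 17 mural, 16 macrophage and 8 endothelial against mural departures were left, with 5 members higher in early, 0 in late, 1 in S-phase, 1 in mitotic and 6 in endothelial comparisons and 0 lower in late, 0 in S-phase, 9 in mitotic, 7 in endothelial and 0 in endothelial against mural comparisons. With library size alone, 28 members were higher and 2 lower in early, 0 higher and 79 lower in late, and 32 higher and 13 lower in endothelial comparisons. With member, crystallin and mitochondrial genes left out of the scaling, 9 were higher in endothelial cells and 41 lower in S phase. DESeq2 gave 3 higher in mitotic, 52 lower in S-phase and 2 lower in endothelial against mural comparisons. Without doublet removal 11 departed and 0 were lower in the late comparison, without a filter on low counts 5 were higher in S phase, and stricter gates gave 23 higher in endothelial cells. With no upper limit on UMIs, 29 were higher and 13 lower in endothelial cells and 0 lower in endothelial against mural cells. Thinned to 3000 UMIs, 9 departed and 18 were higher in the late comparison, 1 was higher in macrophages and 0 lower in endothelial against mural cells. Apart from the scaling by library size and the fewer or other barcodes of a setting, the cause was not tested.

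With 1 pool left out, and with no test, the member medians ranged from 0.20 to 0.21 (early), 0.11 to 0.11 (late), -0.20 to -0.09 (S phase), -0.31 to -0.21 (mitotic), -0.24 to -0.11 (endothelial), -0.60 to -0.59 (mural), -0.79 to -0.58 (macrophage) and 0.39 to 0.50 (endothelial against mural). The values from pool 2 alone equal those of pool 2 under the main scaling, so only those from pool 1 alone are new. Scaled alone, the pool 1 median was lower in every comparison. It went from -0.06 to -0.20 in S phase, from -0.16 to -0.31 in mitosis and from -0.04 to -0.24 in endothelial cells. The endothelial median was 0.06 with library size alone and 0.04 with no upper limit on UMIs, and the late median -0.37 with library size alone. The 2 pools, and the 25 and 26 macrophage barcodes, limit what can be seen.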
